A study of Arabidopsis thaliana with 6 samples.

Results

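The transcripts described here are the 100 that differed most from one wild-type leaf sample to another on Arabidopsis thaliana expression arrays. They were chosen by their wild-type values. A probe set was eligible when the gene table paired it with 1 gene on a nuclear chromosome, its mean wild-type signal was at least 50, and the sto2 signals did not all lie below or all lie above the wild-type range. Of 22746 probe sets tested, 3829 were eligible, and these were ranked by the standard deviation (SD) of log2(signal + 16) over the 3 wild-type arrays. GH3.3, COR15A and PDF1.2b, which would have ranked 1, 8 and 27, were left out by name, as were IAA29 and BCAT4, whose groups did not overlap. The 100 transcripts came from 100 different loci, 29 of them on chromosome 1, 16 on chromosome 2, 19 on chromosome 3, 11 on chromosome 4 and 25 on chromosome 5.

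The study compared wild-type Col-0 plants with sto2 null mutants, 3 biological replicates of each, to look for genes that act downstream of the STO2 protein. All plants were 3 weeks old, stood in soil at 22 °C in the light and 18 °C in the dark, with 16 h of light and 8 h of dark, and received no treatment. Leaves 3 to 6, still expanding, were taken and their total RNA was hybridised to single-colour Affymetrix arrays. The STO2 locus is named in none of the sources used, which leaves the genotype labels without a check on the mutated gene itself, and the sources do not state how many plants made up a sample.

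Auxin is a growth hormone whose early response genes rise and fall quickly, cytokinin acts through response regulators in dividing and expanding tissue, and sugar and nitrogen supply set the level of many transporter and enzyme transcripts. Stress brings in detoxifying enzymes such as cytochrome P450s and glutathione S-transferases.

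In wild type 1 array stood apart for these transcripts, and in sto2 a pair of arrays lay at opposite ends. Wild-type replicate 1 was the array farthest from the wild-type mean in 84 of the 100 transcripts, compared with 1850 of the 3729 eligible transcripts that were not chosen. Among the sto2 arrays, replicate 2 lay farthest from its group mean in 50 of the 100, replicate 1 in 41 and replicate 3 in 9, and in the unchosen eligible transcripts these counts were 1461, 1268 and 1000 of 3729. The median size of the deviation over the 100 was 0.229 on sto2 replicate 2 and 0.204 on sto2 replicate 1. The median SD of the 100 transcripts over the wild-type arrays was 0.526 with all 3 arrays and 0.161 without replicate 1, and 16 of the 100 would be chosen again without that array, against 66 without replicate 2 and 80 without replicate 3. The median signal ran from 37.0 to 38.55. The trimmed mean was 100.009 on every array, as scaling to a common value would give, so it does not show that the arrays were alike. Other whole-array measures differed. The share of probe sets at or below the bacterial controls ran from 23.0% on sto2 replicate 2 to 34.0% on wild-type replicate 2. The highest control reading was 9.5 and 18.4 on these arrays. The older ubiquitin control set had its highest 3′ over 5′ log2 ratio on wild-type replicate 1 and sto2 replicate 2, with 1.08 on wild-type replicate 1 against 0.924 and 0.886 on the other two, and 1.17 on sto2 replicate 2 against 0.911 and 0.961. The 25S ribosomal RNA control was also highest on these arrays within each group, at 1761.6 against 1481.9 and 1707.8 in wild type and at 1818.8 against 1553.9 and 1378.4 in sto2. The other control ratios ran both ways on these arrays. The newer ubiquitin set was highest on both within their groups (0.444 and 0.238), as was the newer GAPDH set (-0.156 and -0.231), whereas the older GAPDH set (0.12 and 0.251) and the newer actin set (0.999 and 0.818) were lowest on both. The older actin set was lowest on wild-type replicate 1, at 2.52, and in the middle on sto2 replicate 2, at 2.01. The part of RNA quality in the results below was not tested.

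The arrays read as leaf. A listed gene is called measured where its name was matched to a probe set, so unmatched genes may still be on the array. All 7 measured photosystem and light-harvesting genes were above the bacterial controls on all 6 arrays, with a summed signal between 23420 and 25030, whereas both measured shoot apex markers, CLV3 and UFO, stayed between 1.6 and 5.8 and never exceeded the controls. The root markers EXP7 and PYK10 read between 6.2 and 17.9 and each passed the controls on 1 array. The third, EXPA18, read between 16.2 and 38.7 and passed them on all 6. Of the 2 flower markers measured, AMS was at or below the controls on all arrays. TUA1 was above them on all 6, between 111.4 and 131.0. The 4 measured genes of the guard cell list summed to 182.6, 123.6 and 119.8 in wild type and to 128.1, 178.6 and 156.8 in sto2. These sums were highest on wild-type replicate 1 and sto2 replicate 2. STOMAGEN, 1 of the 4, had that order and made up 92.8 of the sum on wild-type replicate 1 and 94.6 on sto2 replicate 2. It is itself among the 100, chosen for its wild-type spread, so these sums do not measure guard cell number. FAMA read 68.2, 78.3 and 55.4 and then 59.1, 70.7 and 70.5, and MUTE and SPCH each passed the controls on 1 array. In the phloem list SWEET11 alone was measured, and it was lowest on that pair of arrays. It read 701.5, 1086.6 and 1049.7 and then 1212.3, 995.1 and 1112.1. The summed trichome list was lowest on wild-type replicate 1 and sto2 replicate 3. In whole leaves fewer cells of a type and less RNA per cell cannot be told apart, and the part of cell composition was not tested.

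Wild-type spread ranged from an SD of 0.441 to 1.144 over the 100 transcripts, with a median of 0.526, beside a median of 0.142 over all eligible transcripts. These values chose the transcripts and are a description. The transcripts just inside the limit were AT5G34930, GAMMA-VPE and AT1G30820 with SDs of 0.443, 0.441 and 0.441, and just outside it lay AT2G26920, AT5G61340 and AT2G44120 with 0.441, 0.44 and 0.438, so the limit separates no distinct set. All 100 transcripts were above the bacterial controls on all 6 arrays.

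The most variable transcript was AT2G20670, at 318.8, 64.6 and 73.8 signal units on wild-type replicates 1 to 3 and at 93.0, 412.2 and 139.8 on sto2 replicates 1 to 3. A single array stood high in each group, wild-type replicate 1 and sto2 replicate 2, and the groups overlapped, as they do by rule in every transcript described here. AT1G73600 ran the other way, with 84.3, 358.5 and 297.7 in wild type and 237.0, 144.5 and 172.3 in sto2, lowest on those same arrays. AT3G07350 read 157.6, 31.0 and 38.9 in wild type and 24.4, 54.4 and 36.2 in sto2. AT3G44450 read 33.0, 130.4 and 107.6 and then 89.2, 48.6 and 62.4. These 4 loci carry no name or description in the tables used here, as is true of 79 of the 100. In each of the 4, wild-type replicate 1 and sto2 replicate 2 were displaced the same way.

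Each transcript was assigned to a profile by its wild-type values, according to which replicate was separated from the other two and in which direction. Wild-type replicate 1 was the low array in 49 of the 100 transcripts and the high array in 35. Replicate 2 was high in 9 and low in 2, and replicate 3 was low in 4 and high in 1. The heat map of deviations shows these profiles beside the sto2 arrays, which took no part in assigning them.

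**Figure D1:**
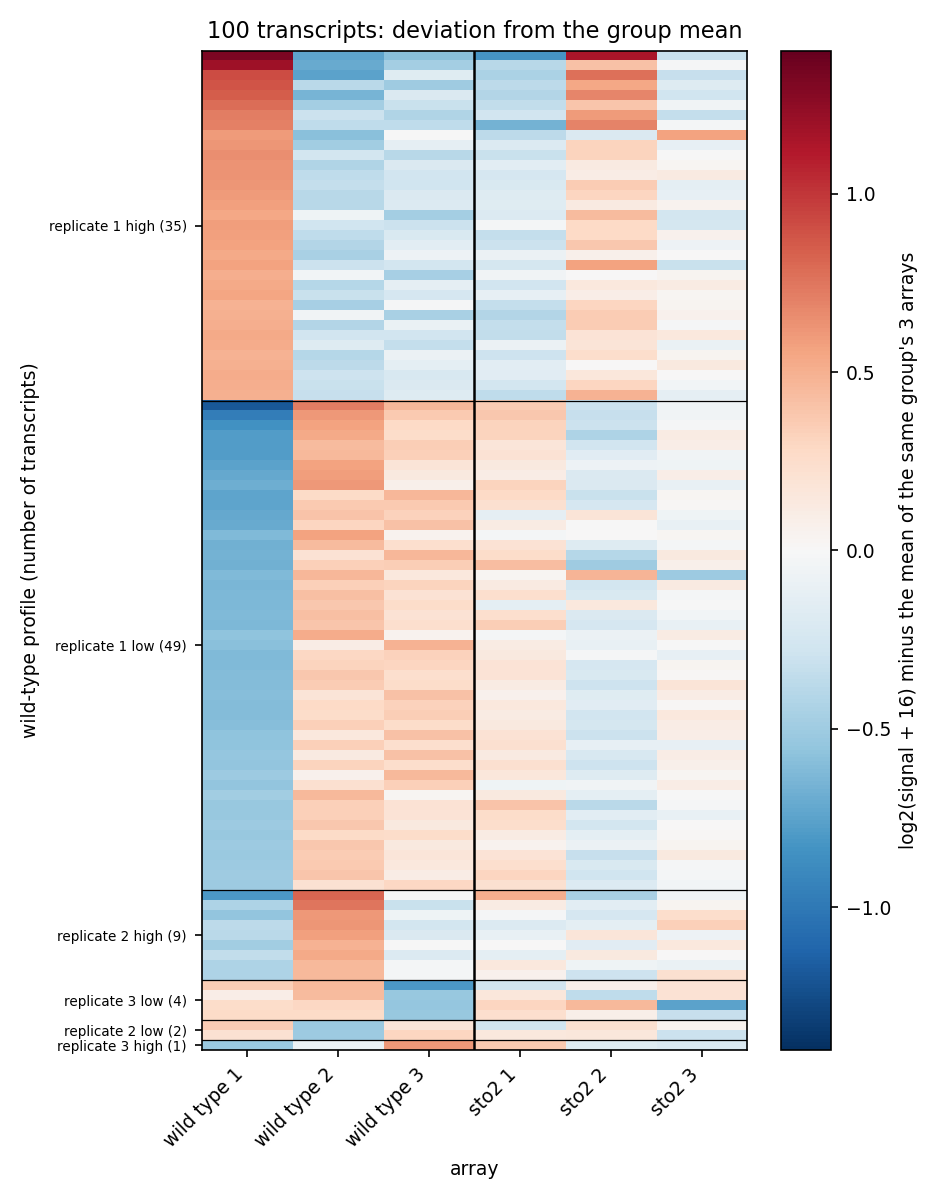
Deviation of each of the 100 transcripts (rows) on each of the 6 arrays (columns), as log2(signal + 16) minus the mean of the 3 arrays of the same group; rows are grouped by wild-type profile, with the number of transcripts in brackets, and red is above and blue below the group mean. Wild-type replicate 1 and sto2 replicate 2 carry the same colour in most rows of the upper 2 blocks, while sto2 replicate 1 mostly carries the opposite one.

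The sto2 arrays also spread widely in many of these transcripts, over a narrower range than the wild-type arrays. The median sto2 SD of the 100 was 0.253, which was smaller than their wild-type median and larger than the median of 0.107 over all eligible transcripts. The sto2 SD exceeded the eligible median in 94 of the 100 and the eligible 90th percentile of 0.219 in 61. It was at or above the wild-type SD in 2 transcripts, HAT2 and AT2G26210. Without sto2 replicate 2 the medians were 0.152 for the 100 and 0.0815 for all eligible transcripts. Because the ranking took the wild-type extremes, a smaller SD on arrays that took no part in it is built into the choice.

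**Figure D2:**
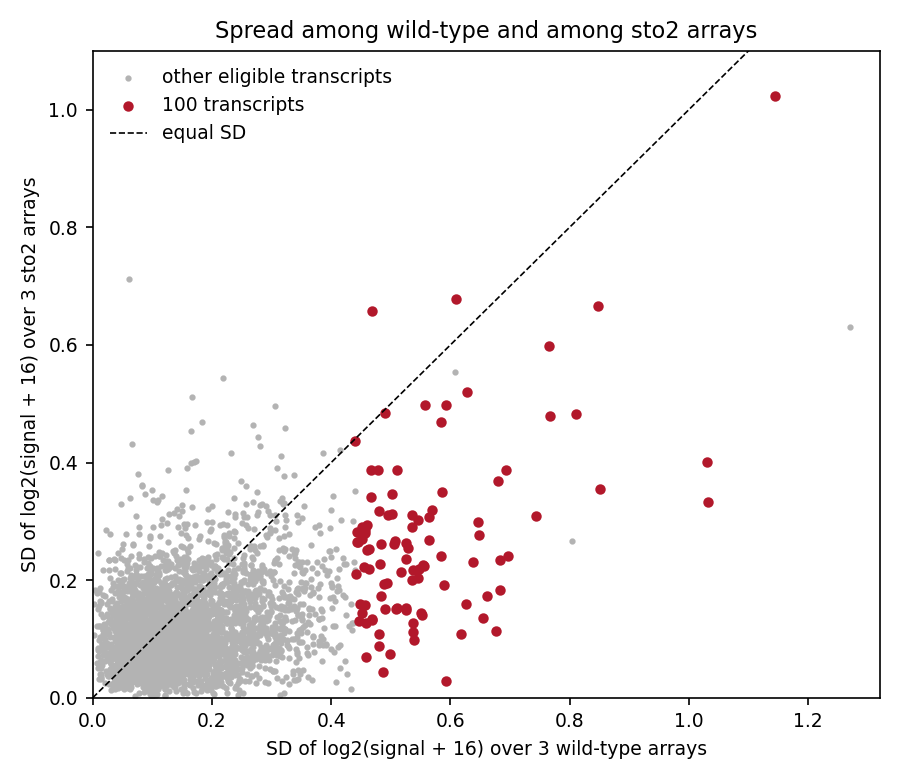
SD of log2(signal + 16) over the 3 wild-type arrays (horizontal axis) and over the 3 sto2 arrays (vertical axis), for the 100 transcripts in red and the other eligible transcripts in grey, with a dashed line of equal SD. The 100 transcripts lie to the right because wild-type SD chose them, and 94 of them lie above the eligible median sto2 SD of 0.107.

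The sto2 spread of each transcript was tested against the prior variance that limma fits across all probe sets, in a one-sided F test with Benjamini-Hochberg adjustment. None of the 100 passed at an adjusted p of 0.05, and none of all probe sets did (0%, lowest adjusted p 0.923). With 2 degrees of freedom per transcript and 2.68 for the prior, the test also missed very large planted spreads on simulated data, so this count of 0 says nothing about stability. At an unadjusted p under 0.05 the count was 24 of the 100, beside 2.04% of the eligible transcripts and 3.05% of all probe sets. Of these 24, 15 had wild-type replicate 1 high and 7 had it low, and in 23 sto2 replicate 2 was the highest or the lowest sto2 array. Without sto2 replicate 2 the count was 12, beside 3.48% of all probe sets.

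The order of the sto2 arrays followed the wild-type profile. Among the 35 transcripts with wild-type replicate 1 high, sto2 replicate 2 was the highest sto2 array in 31 and the lowest in 0, and sto2 replicate 1 was the lowest in 30. Among the 49 with wild-type replicate 1 low, sto2 replicate 2 was the lowest in 41 and sto2 replicate 1 the highest in 39. Over all 3829 eligible transcripts sto2 replicate 2 was highest in 37.5% and lowest in 34.5%, and sto2 replicate 1 was highest in 36.7% and lowest in 32.8%. Over the 100, sto2 replicate 2 was highest in 39 and lowest in 47, sto2 replicate 1 was highest in 44 and lowest in 39, and sto2 replicate 3 was highest in 17 and lowest in 14. In the eligible transcripts that were not chosen, sto2 replicate 2 was highest in 534 of 892 (59.9%) where wild-type replicate 1 was high, and lowest in 527 of 958 (55.0%) where it was low.

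**Figure D3:**
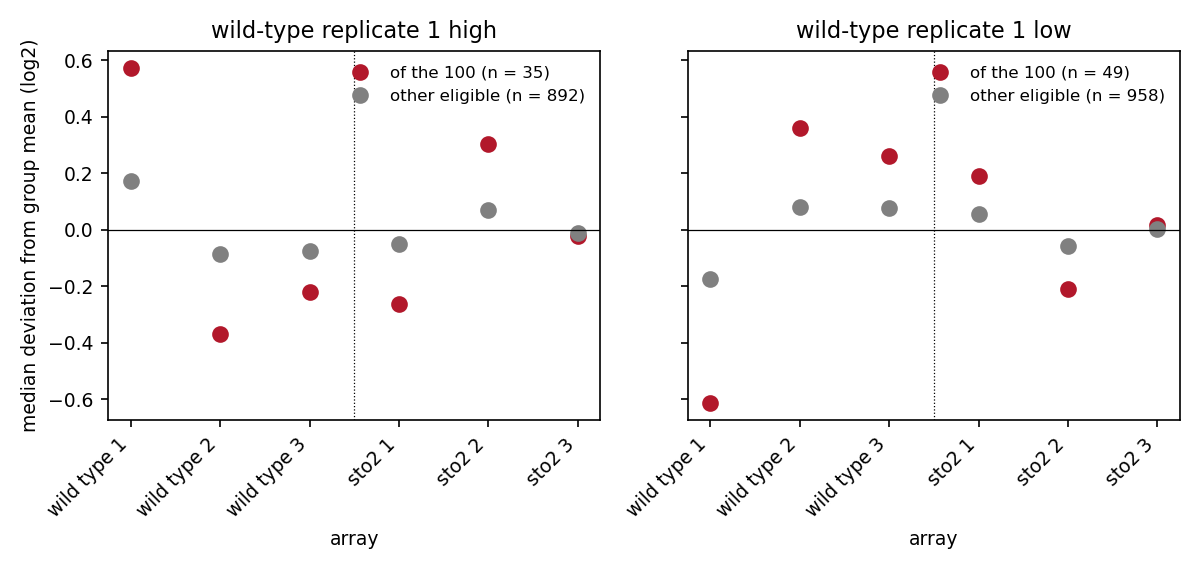
Median deviation from the group mean in log2 units (vertical axis) on each array (horizontal axis) for transcripts with wild-type replicate 1 high (left) and low (right), in red for those among the 100 and in grey for the other eligible transcripts. On sto2 replicate 2 the red medians are 0.302 on the left and -0.21 on the right, and on sto2 replicate 1 they are -0.264 and 0.189.

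Wild-type replicate 1 minus the mean of the other wild-type arrays, and sto2 replicate 2 minus the mean of the other sto2 arrays, had the same sign in 92 of the 100 transcripts. The same held in 64.8% of the eligible transcripts that were not chosen and in 58.2% of all probe sets. The median size of the displacement over the 100 was 0.864 on wild-type replicate 1 and 0.343 on sto2 replicate 2. Across the 100 transcripts the deviations on wild-type replicate 1 had a Pearson r of 0.815 with those on sto2 replicate 2, -0.834 with those on sto2 replicate 1 and -0.224 with those on sto2 replicate 3, and across the unchosen eligible transcripts 0.436, -0.403 and -0.0626. The 3 deviations of a group sum to 0, so these values are not separate results. They are correlations across genes on the same arrays, and genes on an array are not independent replicates. The 8 exceptions were ATPMEPCRB, AT5G27930, AT5G66470, AT1G64890, RING1, AT5G64120, AT4G08410 and AT5G42320, listed here because they are so few. In AT1G64890 the signals were 111.5, 254.2 and 201.0 in wild type and 125.7, 177.5 and 81.2 in sto2, so sto2 replicate 2 was the high array where wild-type replicate 1 was the low one.

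**Figure D4:**
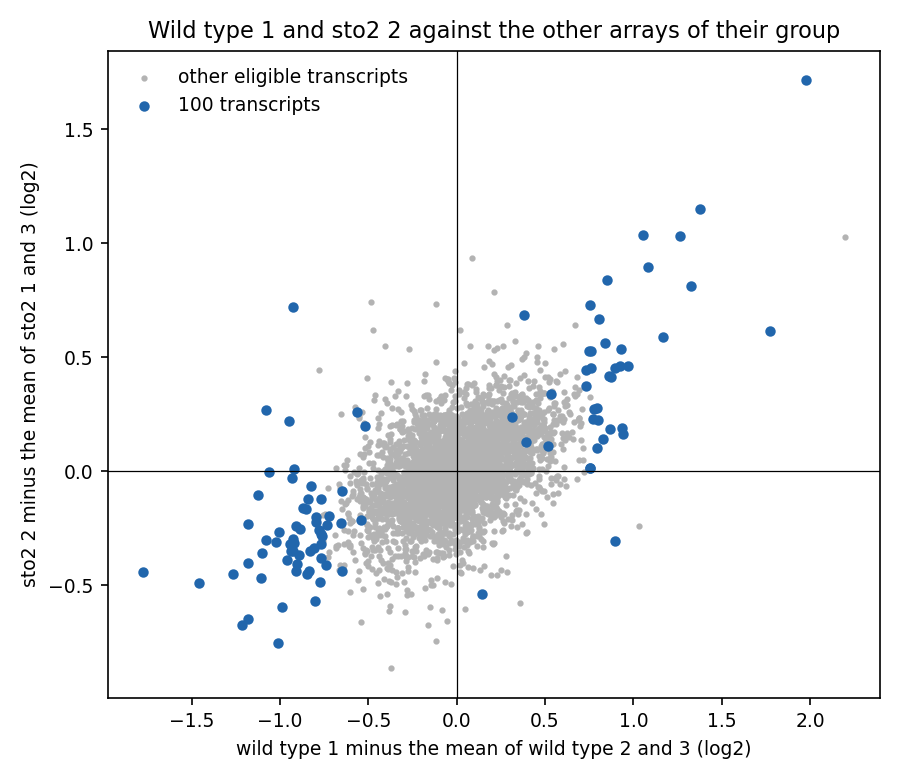
Displacement of wild-type replicate 1 from the mean of the other wild-type arrays (horizontal axis, log2) and of sto2 replicate 2 from the mean of the other sto2 arrays (vertical axis, log2), for the 100 transcripts in blue and the other eligible transcripts in grey. Of the blue points, 92 lie in the lower left and upper right of the plot, where both displacements have the same sign.

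Names or descriptive synonyms were available for 21 of the 100 transcripts, and these are described by role, all of them because they are named. Wild-type replicate 1 was low in 15 of the 21, high in 4, and wild-type replicate 2 was high in the other two. The sto2 SD lay above the eligible median in 20, and 4 met an unadjusted spread p under 0.05, namely HAT2, EXO, SFP1 and ATSPS4F.

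The named transcripts of growth, hormone signalling and stomatal development were EXO, HAT2, RR16 and STOMAGEN, which ranked 5, 24, 81 and 74. The lists of cell cycle and growth, of gibberellin and brassinosteroid and of ethylene held none of the 100. EXO encodes EXORDIUM, an extracellular protein that promotes cell expansion. Its signals were 256.1, 69.5 and 112.2 in wild type and 69.2, 180.7 and 76.3 in sto2, high on 1 array in each group, with SDs of 0.85 and 0.67. HAT2, an auxin-inducible homeodomain-leucine zipper transcription factor, read 405.6, 187.0 and 187.1 in wild type and 93.3, 263.5 and 154.1 in sto2. Its sto2 SD of 0.68 exceeded its wild-type SD of 0.61. RR16, a cytokinin response regulator, read 205.9, 387.8 and 350.9 in wild type and 216.8, 160.4 and 165.7 in sto2, low on wild-type replicate 1 and within a narrower range on the sto2 arrays. STOMAGEN, a secreted peptide that promotes formation of stomata, read 92.8, 40.0 and 60.4 in wild type and 55.4, 94.6 and 76.5 in sto2, with sto2 replicate 2 the highest.

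The auxin list of 35 genes had 7 measured members, and HAT2 was the one among the 100. GH3.3, an enzyme that joins auxin to amino acids, read 288.2, 53.6 and 47.3 in wild type and 22.7, 75.6 and 36.2 in sto2. IAA29, a repressor of auxin response, read 578.0, 242.5 and 241.5 and then 99.0, 239.5 and 138.4. Both were highest on wild-type replicate 1 and sto2 replicate 2. GH3.5, whose wild-type mean was under 50, read 73.9, 32.2 and 33.0 and then 27.8, 65.6 and 37.3. YUC2, an enzyme of auxin synthesis, read 79.2, 56.6 and 50.6 and then 45.5, 52.3 and 50.5. GH3.5, YUC2 and HAT2 had the same highest arrays. The remaining pair differed: LBD16, an auxin-responsive transcription factor, read 34.0, 47.4 and 20.6 and then 26.5, 28.9 and 24.2. GH3.1 read 1.4, 8.9 and 1.2 and then 3.9, 1.5 and 1.5, no higher than the bacterial controls on any array. The median deviation of the 4 auxin genes with a mean signal of at least 50 was 0.75 on wild-type replicate 1 and 0.66 on sto2 replicate 2, and HAT2, GH3.3 and IAA29 of the 7 measured genes met an unadjusted sto2 spread p under 0.05, beside 2.04% of the eligible transcripts and 3.05% of all probe sets. GH3.3 and IAA29 are those left out of the 100 by name, so the list was known to vary before it was described. None of the 7 passed the limma test of sto2 against wild type after Benjamini-Hochberg adjustment. In the cytokinin list 2 of 18 genes were measured, and ARR15, the one beside RR16, read 108.8, 80.3 and 96.1 in wild type and 76.1, 48.4 and 49.4 in sto2, so it did not share the low wild-type replicate 1 of RR16.

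The named transcripts of carbohydrate metabolism and of sugar and nitrate transport were ATSPS4F, SFP1, BGLU40 and AT3G21670, a grouping made after their values were seen. All 4 were low on wild-type replicate 1. The list of sugar starvation and carbon supply did not share that order, with a median deviation of 0.05 on that array over its 6 genes with a mean of at least 50, and EXO, its one member among the 100, was high there. ATSPS4F, a sucrose phosphate synthase that makes the precursor of sucrose, read 30, 98.2 and 79.1 in wild type and 112.1, 60.4 and 95.8 in sto2, lowest on sto2 replicate 2. SFP1, a member of the sugar porter family, read 178.3, 375.5 and 376.4 and then 300.6, 150.2 and 232.1, again lowest on wild-type replicate 1 and sto2 replicate 2. BGLU40, a beta-glucosidase, read 59.6, 161.9 and 149.1 and then 117.6, 82.6 and 110.8. AT3G21670 (NPF6.4), of the nitrate and peptide transporter family, read 34.6, 110.1 and 80.4 in wild type and 37.2, 30.3 and 30.5 in sto2. Its sto2 arrays all stayed near the lowest wild-type array, with an SD of 0.11 that was close to the eligible median.

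**Figure D5:**
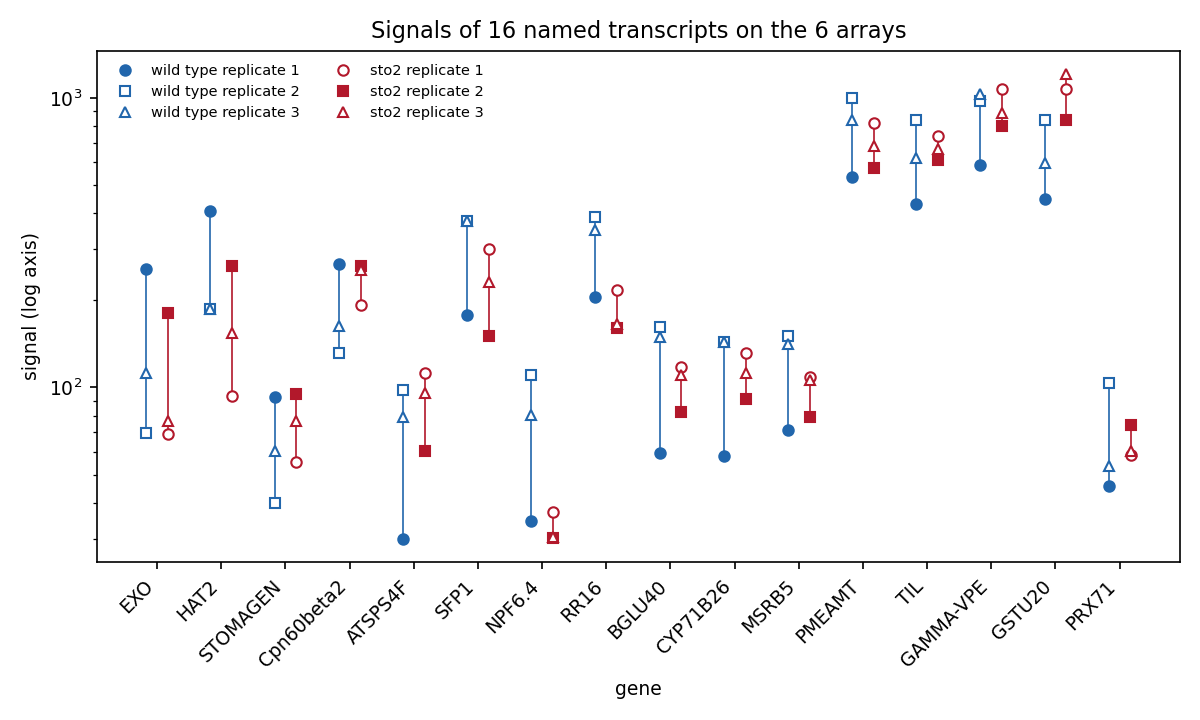
Signal on a log axis of 16 of the named transcripts on the 3 wild-type arrays (blue) and the 3 sto2 arrays (red), with the marker shape giving the replicate number, filled markers for wild-type replicate 1 and sto2 replicate 2, and a line from the lowest to the highest array. Levels are not comparable between genes. In EXO, HAT2, STOMAGEN and Cpn60beta2 the filled markers are the highest of their group, and in the next 10, from ATSPS4F to GAMMA-VPE, wild-type replicate 1 is the lowest.

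The named detoxification, redox and cell wall enzymes did not all follow 1 order. The cytochrome P450 CYP71B26 read 58.2, 143.6 and 143.3 in wild type and 131.7, 91.3 and 112.2 in sto2, lowest on wild-type replicate 1 and sto2 replicate 2. Its relative CYP71B28 read 66.9, 125.3 and 136.8 in wild type but 116.2, 117.5 and 131.7 in sto2, where the arrays hardly differed (SD 0.09). MSRB5, which repairs oxidised methionine, read 71.3, 150.6 and 141.5 and then 108.3, 79.3 and 105.8. The glutathione S-transferase GSTU27 read 72.0, 114.8 and 155.2 and then 133.8, 101.9 and 120.1. All 3 of CYP71B26, MSRB5 and GSTU27 were thus lowest on that pair of arrays. GSTU20, of the same transferase family, had wild-type replicate 2 as its high array, with 446.0, 840.2 and 597.2, and read 1075.5, 838.3 and 1209.3 in sto2. AT5G64120 (PRX71), a peroxidase, read 45.8, 103.7 and 53.5 and then 58.3, 74.2 and 60.3, with replicate 2 highest in both groups. ATPMEPCRB (PME41), a pectin methylesterase that modifies the cell wall, read 22.2, 67.2 and 62.6 and then 29.5, 40.1 and 31.6, so its low wild-type array had no low counterpart in sto2 replicate 2. Peroxidases, glutathione transferases and oxidoreductases recognised by name were 4 of the 100 and 45 of the 3829 eligible transcripts, and cytochrome P450s were 2 and 5, and with so few named members these shares are not read further.

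Transcripts of protein turnover, folding, lipids and folate completed the named set. RING1, a RING-type ubiquitin ligase, read 208.6, 435.6 and 400.1 in wild type and 401.0, 493.5 and 441.3 in sto2, where replicate 2 was the highest and not the lowest array. GAMMA-VPE, a vacuolar processing protease, read 584.9, 977.8 and 1028.8 and then 1072.8, 799.3 and 890.2. Both had wild-type replicate 1 low, and they parted on sto2 replicate 2. Cpn60beta2, a chaperonin subunit of the chloroplast, read 266.3, 131.5 and 162.4 and then 193.2, 262.5 and 255.3, highest on wild-type replicate 1 and sto2 replicate 2. The lipocalin TIL, which takes part in heat and freezing tolerance, read 429.2, 836.1 and 618.5 and then 740.0, 611.4 and 668.5. PMEAMT, which methylates phosphoethanolamine for membrane lipid synthesis, read 533.3, 1001.8 and 841.6 and then 816.2, 571.0 and 684.0. The folate enzyme 5-FCL read 30.7, 84.7 and 71.1 and then 80.7, 58.2 and 66.6. In TIL, PMEAMT and 5-FCL the lowest array was wild-type replicate 1 in one group and sto2 replicate 2 in the other.

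Among the unnamed loci with wild-type replicate 1 high, AT5G12050 read 852.3, 293.0 and 405.5 in wild type and 134.9, 306.2 and 148.9 in sto2. AT5G02540 read 498.3, 237.8 and 216.3 and then 121.0, 233.0 and 114.4. AT5G19120 read 583.2, 235.6 and 266.3 and then 267.9, 455.9 and 330.6. All 3 had sto2 replicate 2 highest, and in the first pair 1 sto2 signal alone lay inside the wild-type range. Among those with wild-type replicate 1 low, AT1G68600 read 77.4, 231.5 and 187.5 and then 143.8, 88.2 and 111.1. AT5G59540 read 103.5, 265.4 and 244.7 and then 161.2, 122.4 and 133.0. Both were lowest on sto2 replicate 2 as well. AT2G25450 read 160.6, 419.4 and 302.8 and then 404.6, 323.9 and 400.7. AT5G59130 read 22.9, 79.1 and 49.7 and then 43.2, 25.3 and 28.2. These loci shared that order. AT1G19960 read 43.7, 103.8 and 121.7 and then 49.0, 27.0 and 38.5, with all but 1 sto2 signal below the wild-type range. AT2G46100, at 164.1, 346.2 and 376.0 in wild type, varied little in sto2, where it read 320.4, 295.3 and 273.1.

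The brightest transcripts of the 100 by wild-type mean were also displaced on wild-type replicate 1. The loci given here carry no name or description in the sources used, so no process was assigned to them. AT3G60245 read 2635.7, 1339.2 and 1543.2 in wild type and 1505.3, 1848.1 and 1751.9 in sto2. AT3G49910 read 1971.3, 1116.6 and 1175.9 and then 1461.3, 1825.1 and 1649.1. AT3G05560 read 1467.3, 797.8 and 841.1 and then 951.7, 1105.4 and 1051.9. In these 3 wild-type replicate 1 and sto2 replicate 2 were the highest arrays. AT2G37190 read 1058.1, 526.1 and 561.8 and then 710.0, 904.8 and 916.8, with sto2 replicate 3 marginally above replicate 2. Among the bright loci on the low side, AT5G38980 read 607.1, 1049.9 and 1234.2 and then 1236.5, 1050.7 and 1277.5. AT1G64370 read 497.6, 921.3 and 837.3 and then 838.2, 483.7 and 625.9. Spread of this size was therefore found far above the bacterial controls, whose highest reading on any array was 18.4.

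A minority of 16 transcripts had another wild-type array apart. With replicate 2 high, AT1G20070 read 74.0, 260.7 and 141.2 in wild type and 145.2, 66.9 and 92.4 in sto2. AT1G51090 read 46.6, 126.9 and 52.1 and then 66.1, 52.4 and 62.0. AT5G41900 read 40.1, 109.8 and 63.0 and then 44.0, 35.7 and 56.2. These 3 had sto2 replicate 2 lowest. AT1G61360 read 35.3, 85.0 and 39.4 and then 48.2, 50.5 and 76.5. In the 9 transcripts of this profile sto2 replicate 2 was lowest in 5 and highest in 2, with no array at one end throughout. With replicate 3 low, AT5G05600 read 71.3, 78.5 and 23.5 and then 19.2, 28.7 and 32.6. AT1G66070 read 127.0, 127.0 and 66.7 and then 109.4, 97.2 and 69.6. AT4G08410, whose probe set can share sequence with other genes, read 63.7, 85.4 and 35.5 and then 68.0, 42.6 and 70.2. AT2G26210 is the clearest case of a like number standing apart in both groups, with replicate 3 low at 48.6 against 96.0 and 98.7 in wild type and at 37.2 against 94.4 and 107.1 in sto2. The order of the 3 replicate numbers was the same in both groups in 6 of the 100. No like count over all eligible transcripts is given, so nothing is read from it. With replicate 2 low, AT1G67340 read 82.9, 37.8 and 71.0 and then 52.4, 80.7 and 69.6. AT5G34930 read 72.7, 37.9 and 78.3 and then 59.7, 60.3 and 39.3. AT2G04790 was the one transcript with replicate 3 high, at 48.5, 71.0 and 124.9, and its sto2 signals of 104.9, 67.2 and 65.7 were highest on replicate 1.

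Wide wild-type spread did not always come with sto2 spread. The smallest sto2 SD was that of AT5G27930, which read 84.4, 211.8 and 142.8 in wild type and 122.5, 126.4 and 128.1 in sto2, an SD of 0.59 against 0.029. AT2G47410 read 113.0, 72.5 and 49.8 and then 48.3, 50.9 and 52.3. AT1G78995 read 170.3, 327.8 and 276.2 and then 319.1, 291.1 and 316.2. These transcripts lay at or below the eligible median of sto2 spread, although their wild-type arrays differed up to 2.509-fold. AT3G23940 read 321.5, 154.0 and 206.0 and then 280.5, 312.6 and 299.2. AT3G25570 read 38.6, 99.1 and 67.3 and then 60.5, 57.7 and 68.2. For 57 of the 100 the ratio of sto2 SD to wild-type SD was under 0.5. Choosing transcripts by their wild-type SD favours a low ratio, and the examples above were taken for their small sto2 SDs.

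Where the lists did not place members is part of the same description. The 36 gene lists, 28 of processes and 8 of cell types, held 1135 symbols counted list by list. Only 127 genes were matched to a probe set by name. Of the 100 transcripts 5 were on any list: EXO, HAT2, RR16, GSTU20 and STOMAGEN. Most of the 100 carry no name, so a list without a member does not show that its process was stable. The photosynthesis lists held none. Their median wild-type SDs were 0.059 over 7 photosystem and light-harvesting genes, 0.095 over 4 genes of the Calvin cycle and photorespiration and 0.112 over 8 genes of chlorophyll synthesis, all below the eligible median of 0.142. The cold and dehydration list held 4 genes with a mean of at least 50 and a median wild-type SD of 0.54. COR15A was left out of the 100 by name and COR15B, COR47 and XERO2 were not eligible, so none of these could be placed. Their median deviations were -0.15, 0.58 and -0.42 on wild-type replicates 1 to 3, highest on replicate 2. On the sto2 arrays the medians lay between -0.03 and 0.04, but single genes differed in order. COR15A read 363.8, 527.5 and 404.7 in sto2, highest on replicate 2, and COR15B read 640.9, 480.3 and 550.7, lowest there. The median sto2 SD of the 4 was 0.136, beside 0.107 over all eligible transcripts. The list of clock and evening genes had 1 gene of 32 matched by name. That of ribosomal proteins and translation had 1 of 36, and those of abscisic acid, phosphate starvation and water channels had 0. These processes could not be described, for want of matched names and not of signals on the arrays. The limma test with Benjamini-Hochberg adjustment called 1 measured list gene, the expansin-like EXLB1 (adjusted p = 0.0363), which is not among the 100.

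Genes next to each other on a chromosome occurred 3 times among the 100, in the gene order of the TAIR10.1 assembly, and each pair shared its profile. AT1G21050 read 357.9, 139.6 and 127.1 in wild type and 110.7, 222.0 and 128.5 in sto2. Its neighbour AT1G21060 read 101.3, 48.2 and 50.1 and then 40.1, 81.8 and 37.4, high on the same arrays. AT1G64360, next to AT1G64370, read 28.8, 74.1 and 65.5 and then 40.8, 22.1 and 25.6. AT5G47380, next to HAT2, read 79.2, 36.3 and 35.5 and then 40.6, 54.0 and 32.8. Each pair was therefore displaced the same way on wild-type replicate 1 and on sto2 replicate 2. The remaining arrays could differ in order: HAT2 was lowest on sto2 replicate 1 and AT5G47380 on sto2 replicate 3. Of 627 adjacent pairs of eligible genes, 126 shared a profile. That share is no like baseline for the 3 pairs, because profiles were less evenly spread among the 100. Wild-type replicate 1 was low in 49 and high in 35 of them, against 26.3% and 24.2% of all eligible transcripts. The genes with wild-type replicate 1 high had a median annotated length of 1641 bases and those with it low 2161, compared with 2376 and 2365 in the same profiles of the eligible genes that were not chosen.

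The comparison of sto2 with wild type entered the choice, because transcripts with separate groups had been removed, and its counts are given for completeness with nothing read from them. By limma with Benjamini-Hochberg adjustment, 0 of the 100 passed at 0.05, beside 29 of 22746 probe sets (0.127%). At an unadjusted p under 0.05 these counts were 6 and 3209, and without wild-type replicate 1 they were 43 and 3729. The mean log2 value was lower in sto2 in 55 of the 100 and higher in 45. All 3 sto2 signals lay inside the wild-type range in 54, all but one of them in 27, and 1 of them in 19.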

How the data were processed

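Expression was measured on 6 single-colour Affymetrix arrays, 3 per genotype, grouped by the labelled genotype and numbered as in their titles. The authors deposited 1 intensity per probe set and array, on a linear scale; the sources used here do not give the summarisation method. Per the labels' protocols, RNA was extracted with an RNeasy kit and a service provider labelled, hybridised and scanned. Of 22810 probe sets, 64 controls were left out. Names came from GEO's platform annotation (1 gene for 13513 probe sets, several for 503, none listed for 8730) and the RefSeq table of TAIR10.1, which gives symbols and synonyms only, so families were recognised by those. The array's build is not stated, so no coordinates are given.

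Values were analysed as log2(signal + 16), which understates folds of dim transcripts, in R 4.3.3 using limma 3.58.1 (for the contrast lmFit with eBayes, two-sided; squeezeVar with an intensity trend for the sto2 spread) and Python 3.11.15. P-values were adjusted by Benjamini-Hochberg over all 22746 probe sets, threshold 0.05, and both tests were tested on simulated data. Readings over the brightest of 27 bacterial control probe sets on their array counted as above the controls. A transcript's profile was the wild-type replicate separated by the larger gap, from its ordered values.

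Genes named were the 24 largest wild-type SDs, 4 per profile, list members, the leading members of families with at least 3, the 8 brightest, the 6 smallest sto2 SDs and 3 ranks on each side of the limit; the other named transcripts, opposite cases and neighbours were chosen with their values in view. The members and lists were chosen with earlier results of these data known. Alternatives were other pseudocounts, normalizations, level minimums and priors, the replicate number as a block, and leaving out each array. The number of arrays limits the precision.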

Additional observations from a re-analysis of the deposited data

How the results depend on the processing

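The choice of the 100 transcripts depended most on single arrays and on the level minimum. Leaving out 1 wild-type array kept between 16 and 80 of them, a wild-type mean of at least 100 kept 64, and no minimum kept 46, while other pseudocounts, quantile normalization, median centring and ranking against the trend of SD with level kept between 78 and 96. The median sto2 SD of 0.253 became 0.171 with a pseudocount of 64, where the eligible median fell to 0.0805, and lay between 0.152 and 0.294 when 1 sto2 array was left out. The class with wild-type replicate 1 low held 49 to 51 transcripts under the other scalings, and the sign shared by wild-type replicate 1 and sto2 replicate 2 held in 91 or 92. No setting run gave a transcript of the 100 that passed the adjusted spread test. The unadjusted count ran from 12, without sto2 replicate 2, to 40, with the prior fitted on probe sets of at least 50 signal units. The share called over all probe sets tested moved too, at 3.48% in the first setting and 4.95% of 10075 in the second, beside 3.05% in the main one. Leaving out the 1 probe set that can match several genes, an alternative chosen after seeing the data, put sto2 replicate 2 at an end in 85 rather than 86. Over all probe sets, the 29 limma calls became 17 with a pseudocount of 1, 83 with a pseudocount of 64, 147 with the dimmest 30% left out, and between 5 and 22 with 1 array left out; none were among the 100. With the replicate block there were 2 calls. The deviations of like-numbered arrays correlated at -0.235, -0.136 and 0.0734 over all probe sets. Such correlations across genes cannot show whether like-numbered samples were handled as pairs. The causes of these differences were not tested.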
